A study of Homo sapiens with 9 samples.

Results

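The genes described here are 48 human genes of endoplasmic reticulum (ER) stress and of the amino acid response run by the transcription factor ATF4, measured by mRNA sequencing in SKNO-1 cells. They were taken by gene symbol from 25680 symbols. The rule used no values, but the list was chosen with earlier results of these data known. All 48 symbols were found. Of these, 47 passed the filter on low counts that left 14199 genes for testing, and NUPR1, a small stress-induced chromatin protein, did not, with 0 counts in every sample, which allows at most 0.0847 to 0.108 CPM (counts per 1000000 of the library), the level of 3 counts. SKNO-1 is an established acute myeloid leukaemia line that carries the AML1-ETO (RUNX1-RUNX1T1) fusion, so all 9 samples share that fusion. They form 3 groups of 3, labelled EV, SH2 and SH3. SH2 and SH3 cells carry different short hairpin RNAs (shRNAs) against ASXL2, a chromatin regulator mutated in this leukaemia. EV cells are the control, which the study describes as a control shRNA and whose abbreviation the labels leave unexplained. Every group has 1 sample numbered 1, 1 numbered 13 and 1 numbered 25, and the labels do not say what the numbers stand for. A single cell line was used, so the spread within a group is between samples of this line and not between patients.

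ATF4 is a transcription factor whose protein is made when the translation factor eIF2 is phosphorylated, as happens in amino acid shortage through GCN2 and in ER stress through PERK, the product of EIF2AK3. It drives genes for amino acid synthesis, import and charging onto tRNA, and, under lasting stress, DDIT3 (CHOP), TRIB3 and CHAC1. The ER has 2 further sensors: IRE1, the product of ERN1, which splices XBP1 mRNA, and ATF6, and both lead to more ER chaperones and to more of the machinery that removes misfolded protein. Myeloid blasts make large amounts of granule protein such as myeloperoxidase (MPO) in this compartment.

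Short DNA motifs known for each arm were looked up before these genes. Since they are known for these arms, shares above those of all genes describe the list and are not a test of it. RefSeq promoter windows (GRCh38.p14), 250 bases before to 50 after each start site, were found for 43 of the 48 genes and were searched on both strands. The ER stress response element (ERSE), written CCAAT, then 9 bases of any kind, then CCACG, lay in 7 of the 43 genes (16.3%), against 0.0916% of 27305 genes with such a window. Of the 11 chaperone and folding genes 6 held it, as did XBP1. The following stretches show it, with both motif ends in capitals and each stretch read on the gene's own strand. HSPA5 and XBP1 have it in the forward sense, CRELD2 in the reverse sense, and HSP90B1 once in each. HSP90B1 was chosen for display after its values were seen, and CRELD2 by a rule that used its change between label numbers.
HSPA5 (chr9:125241379-125241421, minus strand): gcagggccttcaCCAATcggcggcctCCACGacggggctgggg
XBP1 (chr22:28800591-28800633, minus strand): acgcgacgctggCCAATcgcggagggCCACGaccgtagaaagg
CRELD2 (chr22:49918542-49918584, plus strand): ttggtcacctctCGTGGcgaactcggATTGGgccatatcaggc
HSP90B1 (chr12:103930204-103930351, plus strand): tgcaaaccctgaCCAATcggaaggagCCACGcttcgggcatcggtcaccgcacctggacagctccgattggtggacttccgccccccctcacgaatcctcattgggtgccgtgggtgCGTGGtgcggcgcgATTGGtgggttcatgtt

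The C/EBP-ATF response element (CARE), TGATGNAA, lay in 13 of the 43 genes (30.2%), against 4.46% of all genes with a window. It was in 7 of 10 aminoacyl-tRNA synthetase genes and 3 of 4 transporter genes, and in 0 of the 11 chaperone genes. The unfolded protein response element (UPRE), TGACGTGG, lay in 2 genes, CARS and HYOU1 (4.65%, against 0.927% of all genes). Its end, CGTGG, is the reverse complement of CCACG in the ERSE. The next stretches carry these 2 motifs in capitals, CARE in its forward or reverse sense in the first 5 and UPRE in HYOU1. ASNS, CHAC1, GARS and SLC1A5 were chosen for display after their values were seen. IARS and HYOU1 were chosen by a rule that used their change between label numbers. A match is a stretch of letters and was not tested as a binding site.
ASNS (chr7:97872457-97872488, minus strand): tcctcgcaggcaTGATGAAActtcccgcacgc
CHAC1 (chr15:40953250-40953281, plus strand): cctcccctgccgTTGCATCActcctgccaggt
GARS (chr7:30594833-30594864, plus strand): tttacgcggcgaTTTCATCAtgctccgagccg
SLC1A5 (chr19:46784892-46784923, minus strand): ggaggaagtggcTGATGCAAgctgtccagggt
IARS (chr9:92293698-92293722, minus strand): attttcagcgcgTTGCATCAcctcc
HYOU1 (chr11:119057374-119057405, minus strand): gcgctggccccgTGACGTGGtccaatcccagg

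Library totals, with 1 transcript row per gene, ranged from 27714431 to 35406063 counts. The line's markers MPO, KIT, CD33, PTPRC, RUNX1T1 and POU4F1 were detected in every sample, while CD34, a marker of early blasts, had 40 counts in all 9 samples together. T-cell, epithelial and fibroblast markers had between 0 and 13 counts each in all samples together. ASXL2 was at 67.9, 67.9 and 74.7 CPM in EV (numbers 1, 13 and 25), at 30.4, 36.2 and 36.2 CPM in SH2 and at 26.9, 29.1 and 41.1 CPM in SH3, so the 6 knockdown samples lay below the 3 EV samples. Across both shRNAs its log2 fold change was -1.09 (SE 0.08, edgeR quasi-likelihood test with the number as a block, Benjamini-Hochberg adjusted p = 0.00098), and without the block it was -1.08 (SE 0.13, edgeR adjusted p = 0.178). One library stood apart. The SH3 sample numbered 1 had the highest level of 28.5% of all genes and the lowest of 26.3%, whereas no other sample had the highest level of more than 12.9% or the lowest of more than 12.6%. Several results that rest on it are given with and without it, or with their range over the fits that left out 1 sample.

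Levels between genes were compared per kilobase of transcript in EV. The length was that of each gene's canonical GENCODE transcript, which can differ from the row counted, so ranks between genes are approximate. ER chaperones stood at the top: CALR (calreticulin, a calcium-binding lectin chaperone) had 1478 ± 119 CPM per kb (SD, n = 3), far above HSP90B1 (GRP94) at 345 ± 30.3, PDIA6 (a disulfide isomerase) at 288 ± 19.97 and CANX (calnexin) at 232 ± 14.1 CPM per kb. ATF4 mRNA was next to these at 367 ± 40.7 CPM per kb, which lies within 1 SD of HSP90B1. The sensors were low, with ATF6 at 12.7 ± 0.26, EIF2AK3 at 5.07 ± 0.24 and ERN1 at 1.23 ± 0.11 CPM per kb. Among the ATF4 targets the enzymes and synthetases reached 98.1 ± 3.78 CPM per kb for SHMT2 and 177 ± 8.21 for TARS, whereas CHAC1, which breaks down glutathione, was at 1.53 ± 1.29 CPM per kb. CHAC1 also varied most, with an 11.4-fold range between the lowest and the highest of the 9 samples, followed by SLC7A11 at 3.89-fold and ASNS at 2.94-fold. SEL1L, a part of the ER degradation complex, varied least at 1.15-fold. PDIA6 shares 25.2% of its annotated exon bases with ATP6V1C2 on the opposite strand, and unstranded libraries cannot tell reads of that stretch apart.

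**Figure D1:**
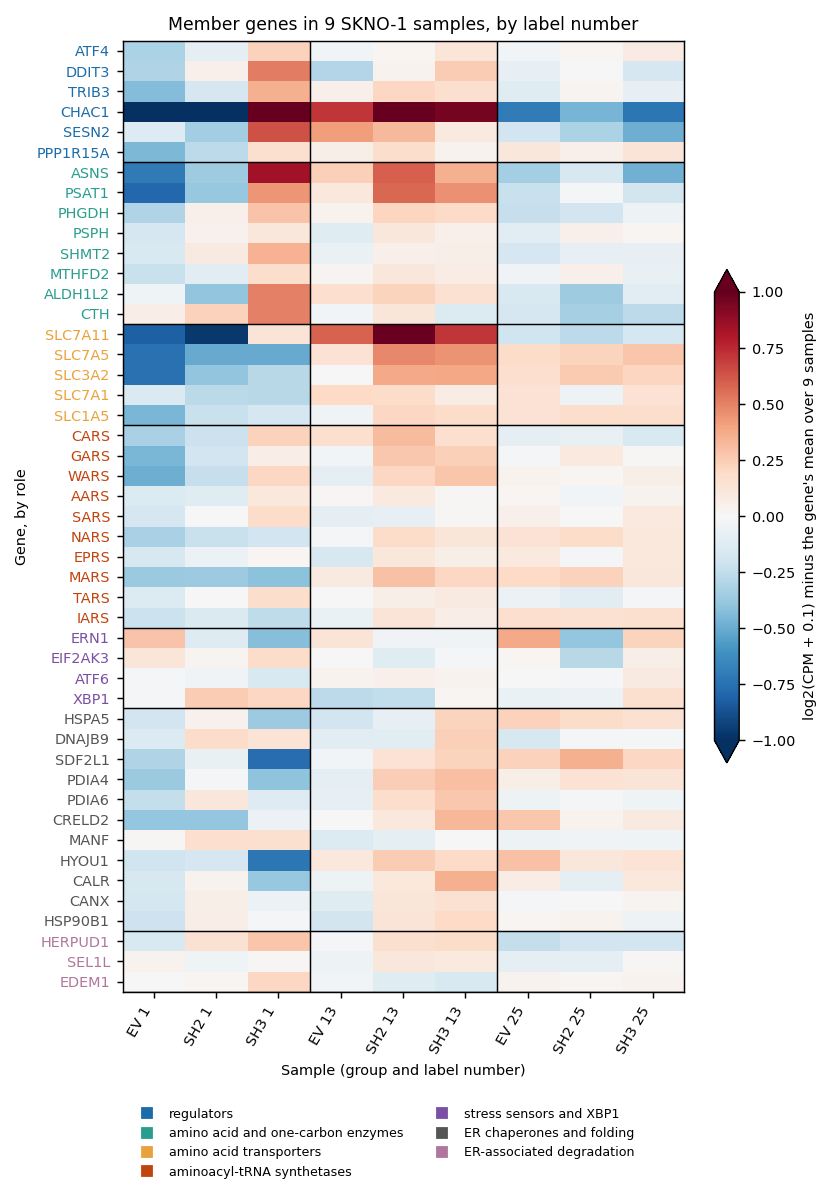
Heat map of the 47 genes that passed the filter (rows, ordered by role) in 9 samples (columns, by label number and group), coloured by log2(CPM + 0.1) minus the gene's mean over the samples, with colours capped at -1 and 1. The EV and SH2 samples numbered 1 are low for most regulators, transporters and synthetases, and the SH3 sample numbered 1 is high for regulators and enzymes and low for HYOU1 and SDF2L1.

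The first comparison asked whether knockdown of ASXL2 moved these genes. None of the 47 passed the threshold, an adjusted p under 0.05 in edgeR's quasi-likelihood test, with either shRNA, with both shRNAs averaged or between the shRNAs. Without the block, no gene of the 14199 passed either (0% in each of the 4 contrasts), and 2, 4, 3 and 0 of the 47 had an unadjusted p under 0.05, against 5.37%, 5.09%, 6.63% and 2.06% of all genes. With the label number as a block, the 47 again held 0 calls, against 0.282% of all genes for SH2, 0.416% for SH3, 1.1% for both and 0.106% between the shRNAs. An unadjusted p under 0.05 was then found for 8, 17, 19 and 2 of the 47, against 18.7%, 18.7%, 20.4% and 11.9% of all genes. DESeq2 without the block called 0 members, beside 0.199%, 0.183%, 0.447% and 0.0775% of all genes. With the block, DESeq2 called 3 members for SH3 against EV, all higher (WARS, PHGDH and SLC3A2), where 4.04% of all genes were called and 1.57% were called higher. It called 3 for both shRNAs, all higher (SLC3A2, SLC7A5 and PHGDH), beside 4.96% and 1.47%, and 0 for SH2 (3.27%) and between the shRNAs (1.24%).

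ATF4 mRNA was at 454, 555 and 553 CPM in EV (numbers 1, 13 and 25), at 529, 571 and 571 CPM in SH2 and at 661, 613 and 596 CPM in SH3. The 3 SH3 samples lay above the 3 EV samples, and SH2 overlapped with EV. The log2 difference of both shRNAs from EV was 0.18 (SE 0.08) with the block, which did not pass the threshold (edgeR adjusted p = 0.227). Over the 9 fits that left out 1 sample this difference ran from 0.09 to 0.23. DDIT3, the CHOP factor of lasting stress, was at 14.9, 15.04 and 17.4 CPM in EV, 19.1, 18.8 and 18.4 CPM in SH2 and 26.2, 21.9 and 16.3 CPM in SH3, with the lowest SH3 value inside the EV range. Its log2 difference was 0.34 (SE 0.12, edgeR with the block, adjusted p = 0.163), and ran from 0.22 to 0.51 over the 9 fits that left out 1 sample. The DDIT3 gene (GRCh37 chromosome 12, 57910371 to 57915520, minus strand) shares 27.2% of its annotated exon bases with MARS on the opposite strand. The study describes unstranded libraries, in which reads of that stretch cannot be told apart between the genes.

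Of the target genes, PSPH, which makes serine in its last step, was the only one of the 47 whose 6 knockdown samples all lay above the 3 EV samples (2.13%, against 2.16% of all genes), and 0 lay below (against 2.61%). PSPH was at 37.5, 38.7 and 38.9 CPM in EV, 43.4, 45.6 and 43.6 CPM in SH2 and 45.6, 43.7 and 42.7 CPM in SH3. The difference was 0.20 (SE 0.06) on the log2 scale with the block (edgeR adjusted p = 0.102). SLC3A2, the heavy chain that amino acid exchangers need at the cell surface, had the smallest adjusted p of the 47 for both shRNAs, at 0.0834 (edgeR with the block, log2 difference 0.28, SE 0.07). For it the shRNA samples numbered 1 (107 and 116 CPM) lay above EV number 1 (84.0 CPM) and below the other EV samples (141 and 158 CPM). ERN1, the IRE1 sensor, was at 9.85, 8.84 and 10.5 CPM in EV, 7.37, 7.87 and 6.17 CPM in SH2 and 5.99, 7.87 and 9.43 CPM in SH3, with a log2 difference of -0.39 (SE 0.14, edgeR with the block, adjusted p = 0.152).

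On the ER side, HSPA5 (BiP, the main ER chaperone and repressor of the sensors) was at 541, 542 and 724 CPM in EV, 637, 585 and 701 CPM in SH2 and 482, 720 and 687 CPM in SH3, and the 3 groups overlapped. The log2 difference of both shRNAs from EV was 0.08 (SE 0.11, edgeR with the block, adjusted p = 0.692). XBP1 was at 326, 274 and 314 CPM in EV, 393, 277 and 317 CPM in SH2 and 380, 333 and 368 CPM in SH3. All 3 SH3 samples lay above all 3 EV samples, and the log2 difference of both shRNAs from EV was 0.17 (SE 0.07, edgeR with the block, adjusted p = 0.192). The 2 transcript rows of XBP1 held the same counts, so spliced and unspliced mRNA could not be told apart.

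As a list, 41 of the 47 genes had a log2 difference above 0 for both shRNAs with the block and the median was 0.14, beside 52.1% of all genes and a median of 0.01. By role, the median was 0.22 for the 6 regulators tested and 0.19 for the 8 amino acid and one-carbon enzymes. It was 0.21 for the 5 transporters, 0.10 for the 10 synthetases and -0.04 for the 4 genes in the list of sensors and XBP1. For the 11 chaperones it was 0.09 and for the 3 degradation genes 0.05. Across genes the difference ran with transcript length, with a Spearman rho of -0.393 over 13396 genes and -0.471 over the 47 in the same 9 libraries, so shorter transcripts had higher values. After a correction for length, the median of the 47 was 0.13 and 0 were called (0.179% of all genes).

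Within each label number, the shRNA samples differed from their own EV sample mainly at numbers 1 and 13. The median difference of the 47 genes in log2(CPM + 0.1) was 0.195 at number 1, 0.159 at number 13 and 0.016 at number 25 for SH2, and 0.282, 0.144 and 0.020 for SH3. The SH2 and SH3 values share the EV samples. Over all genes the 6 medians lay between -0.003 and 0.028. At number 25, the median was 0.081 for the enzymes with SH2 and 0.036 with SH3, and -0.013 and 0.012 for the synthetases. At number 1 the SH3 regulators had a median of 0.783, with all 6 above EV, while the SH3 chaperones had one of 0.108 with 6 of 11 above EV.

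**Figure D2:**
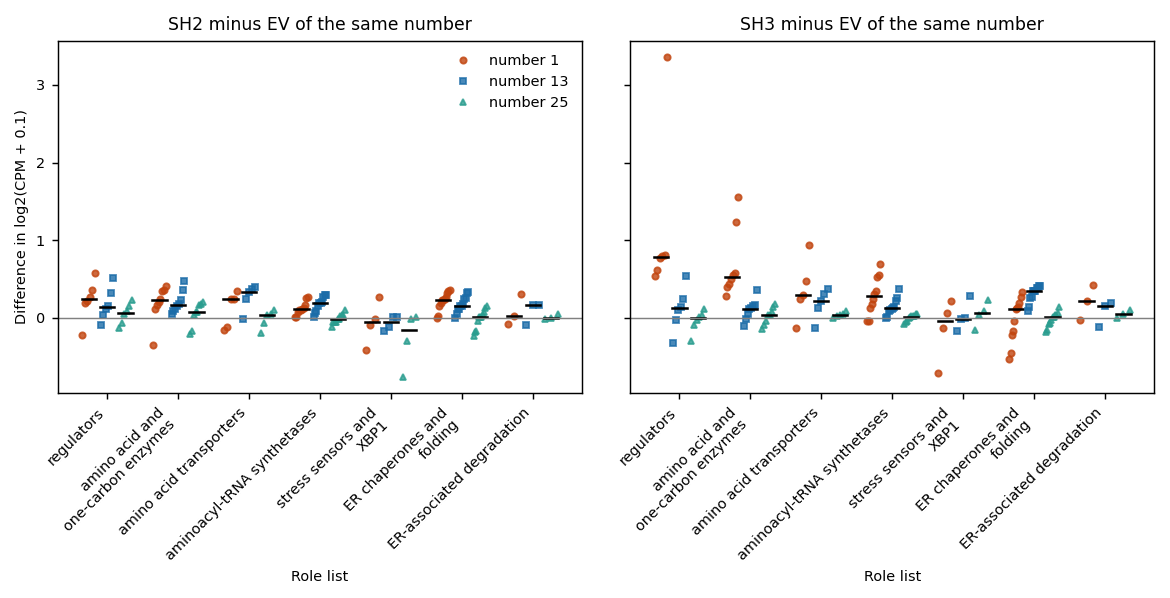
Difference in log2(CPM + 0.1) between each shRNA sample and the EV sample of the same number, by role list. Each point is 1 gene, colours and shapes give the label number, and black bars give the median of the list. The largest differences are in the SH3 sample numbered 1, where CHAC1 is at the top, and the medians over all 47 genes at number 25 are 0.016 for SH2 and 0.020 for SH3.

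Leaving out the SH3 sample numbered 1 changed the calls of the fit with the block. This sample is in neither SH2 nor EV, so no SH2 or EV value was removed, while the spread estimated over all samples changed. For ASXL2 the log2 difference of SH2 from EV was -1.04 both with and without it. The SE was 0.099 with it and 0.083 without it. Among all genes, the calls for SH2 against EV went from 40 to 1604. The added calls therefore do not show a larger SH2 difference. For SH2 against EV, 9 of the 47 were called without this sample, 8 higher and 1 lower. Of all genes 11.2% were called (4.62% higher and 6.61% lower). The 8 that rose were the serine enzymes PSAT1 (log2 0.36, SE 0.06, edgeR adjusted p = 0.0074) and PSPH, asparagine synthetase ASNS (0.30, SE 0.07, edgeR adjusted p = 0.0173), the transporter genes SLC3A2 and SLC7A5, the glycyl-tRNA synthetase GARS, the disulfide isomerase PDIA4 and the pseudokinase TRIB3. ERN1 fell by 0.45 (SE 0.12, edgeR adjusted p = 0.0322). Across both shRNAs 8 of the 47 rose and 0 fell, where 12.3% of all genes were called (5.09% higher). They were GARS, PDIA4, PHGDH, PSAT1, PSPH, SLC3A2, SLC7A5 and XBP1, with log2 values between 0.18 and 0.28. For SH3 against EV, where the SH3 group had lost this sample, 1 gene rose, XBP1 (0.29, SE 0.07, edgeR adjusted p = 0.0489). There 2.58% of all genes were called and 0.819% were called higher. Between the shRNAs 0 members were called (0.721% of all genes). When all 3 samples numbered 1 were left out and the block was kept, 1 member was called, PSAT1 in SH2 against EV (0.34, SE 0.08, edgeR adjusted p = 0.041, with 1.9% of all genes called and 0.447% called higher), and 0 were called for SH3 (2.42%), for both shRNAs (2.63%) and between the shRNAs (0.916%).

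The second comparison set the 3 samples numbered 1 against the 6 numbered 13 and 25, with the group as a covariate. It does not test a treatment, since the meaning of the numbers is not given. Of the 47 genes 17 were called (36.2%), 3 higher and 14 lower at number 1. This was set against 46.3% of all genes, 24.1% higher and 22.2% lower, so a call by itself was not particular to these genes. DESeq2 called 19 of the 47 (40.7% of all genes), as did edgeR without the filter on low counts (32.6%). The median log2 difference was -0.10 for the 47 and 0.01 for all genes. Of the 47 genes 11 had all 3 samples numbered 1 below the other 6 (23.4%, against 12.1% of all genes) and 1, MANF, had them above (2.13%, against 14.4%).

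All 5 amino acid transporter genes fell at number 1. SLC7A5 (LAT1, the carrier of large neutral amino acids, chromosome 16 at 87863629 to 87903113, minus strand, GRCh37) was at 136, 162 and 162 CPM in the EV, SH2 and SH3 samples numbered 1, at 253, 319 and 312 CPM in those numbered 13 and at 259, 267 and 277 CPM in those numbered 25. The ranges did not overlap, and its log2 fold change was -0.88 (SE 0.07, edgeR adjusted p = 5.58e-05). SLC3A2, its partner chain, fell by 0.71 (SE 0.07, edgeR adjusted p = 0.000215), from between 141 and 184 CPM at numbers 13 and 25 to between 84.0 and 116 CPM at number 1. SLC7A11 (xCT, which imports cystine) was at 22.9, 20.6 and 44.2 CPM at number 1, 60.7, 80.2 and 66.2 CPM at number 13 and 35.3, 33.8 and 35.7 CPM at number 25. Here the SH3 sample numbered 1 lay above all 3 samples numbered 25, and the fold change of -0.80 (SE 0.18, edgeR adjusted p = 0.00565) became -1.17 without it. SLC1A5, the glutamine carrier, and SLC7A1, the cationic carrier, fell by 0.42 and 0.35.

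Of the 10 synthetase genes, whose enzymes load amino acids onto tRNA, 4 fell and none rose. MARS (methionyl-tRNA synthetase, chromosome 12 at 57869228 to 57911352, plus strand, GRCh37) was at 180, 181 and 176 CPM at number 1, at 249, 286 and 270 CPM at number 13 and at 268, 274 and 253 CPM at number 25, with no overlap. Its log2 value fell by 0.57 (SE 0.06, edgeR adjusted p = 0.000228). NARS was at 156, 167 and 171 CPM at number 1 and between 194 and 222 CPM in the other 6 samples, a change of -0.37 (SE 0.06, edgeR adjusted p = 0.00117). IARS was at 362, 382 and 353 CPM at number 1 and between 403 and 472 CPM in the others, with -0.31 (SE 0.06, edgeR adjusted p = 0.00342). GARS had -0.29 (edgeR adjusted p = 0.0143) and lost its call without the EV (adjusted p = 0.0949) or the SH2 sample numbered 1 (0.0725). TARS and SARS, at 0.02 and 0.01, were near 0.

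Among the 11 ER chaperone and folding genes 4 fell and 1 rose. SDF2L1 (a cofactor that keeps BiP's clients soluble) was at 16.4, 19.3 and 11.95 CPM at number 1, 19.9, 22.4 and 23.7 CPM at number 13 and 23.8, 25.96 and 23.4 CPM at number 25, and fell by 0.55 (SE 0.12, edgeR adjusted p = 0.00389). Without the SH3 sample numbered 1 that value was -0.37. HYOU1 (GRP170, a nucleotide exchange factor for BiP) was at 445, 453 and 309 CPM at number 1 and between 548 and 626 CPM in the others, with -0.54 (SE 0.10, edgeR adjusted p = 0.0025). Over the 9 fits that left out 1 sample its value ran from -0.64 to -0.38. CRELD2, a secreted ER stress protein, was at 26.4, 26.4 and 33.2 CPM at number 1 and between 34.3 and 43.5 CPM in the others, with -0.42 (SE 0.09, edgeR adjusted p = 0.00416). PDIA4 had -0.39, with a range from -0.48 to -0.28 over the same 9 fits. MANF, a secreted ER protein, rose by 0.17 (edgeR adjusted p = 0.0276) and lost its call in 6 of the 9 fits that left out 1 sample. HSPA5, at -0.25 (SE 0.11, edgeR adjusted p = 0.073), did not pass. It passed in DESeq2 (-0.26, adjusted p = 0.0216) and in edgeR without the filter on low counts (-0.27, adjusted p = 0.038), and without the SH3 sample numbered 1 it was at -0.11 (edgeR adjusted p = 0.343).

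XBP1 rose at number 1 by 0.23 (SE 0.07, edgeR adjusted p = 0.0185). It was the only gene called of the 4 in the list of sensors and XBP1, so no sensor was called. Its samples overlapped, and without the SH2 sample numbered 1 the value was 0.14 (edgeR adjusted p = 0.116), while without SH2 number 25 it had an edgeR adjusted p of 0.0604. Of the 8 enzymes 1 was called, CTH, which makes cysteine from cystathionine. It was at 4.92, 5.52 and 6.67 CPM at number 1, 4.59, 5.11 and 4.26 CPM at number 13 and 4.17, 3.71 and 3.90 CPM at number 25, a rise of 0.41 (SE 0.13, edgeR adjusted p = 0.0258) that was 0.25 (edgeR adjusted p = 0.156) without the SH3 sample numbered 1. CTH also lost its call without SH2 number 1, SH2 number 25, SH3 number 13 or SH3 number 25, with edgeR adjusted p values between 0.0577 and 0.0716.

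PPP1R15A (GADD34, which returns eIF2 to its active form) was the only regulator called. It was at 47.5, 54.2 and 72.6 CPM at number 1, 67.6, 73.4 and 66.5 CPM at number 13 and 70.1, 67.2 and 71.0 CPM at number 25, with -0.27 (SE 0.10, edgeR adjusted p = 0.047). Among the 9 fits that left out 1 sample, the call was kept without SH3 number 1, where the value was -0.46, and without SH3 number 13, and it was lost in the other 7. Without EV number 1 the value was -0.14 (edgeR adjusted p = 0.305). ATF4 had -0.09 (SE 0.08, edgeR adjusted p = 0.388) and DDIT3 had 0.13 (SE 0.12, edgeR adjusted p = 0.392). None of the 3 degradation genes was called.

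**Figure D3:**
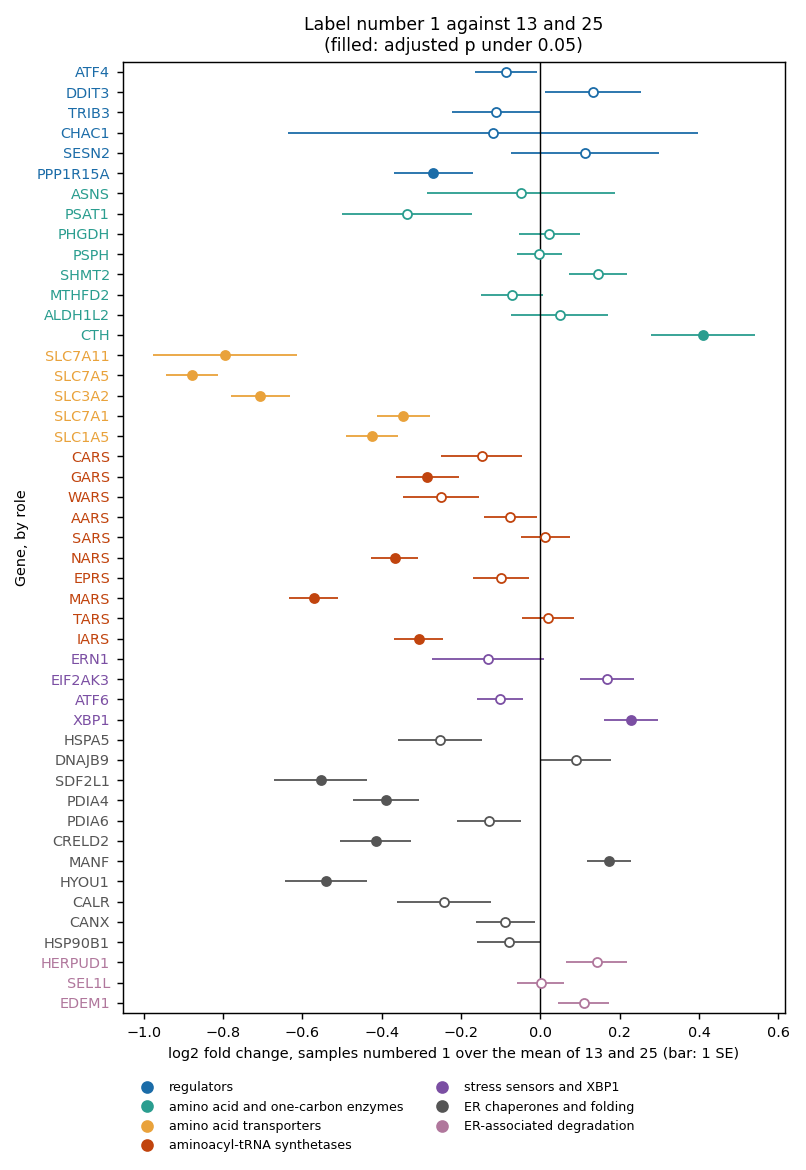
Log2 fold change of the samples numbered 1 over the mean of numbers 13 and 25 for the 47 genes, with bars of 1 SE and filled points for an adjusted p under 0.05 in edgeR. The 5 transporters lie left of 0, with SLC7A5 at -0.88, and the 8 enzymes lie on both sides of 0, from PSAT1 at -0.34 to CTH at 0.41.

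For 9 of the 47 genes (19.1%, against 2.07% of all genes), the SH3 sample numbered 1 opposed the other 2 of its number. No transporter was among these 9. That SH3 sample had the highest level of all samples for 18 of the 47 genes (38.3%, against 28.5% of all genes). These included 5 of 6 regulators and 7 of 8 enzymes. It had the lowest level for 10 (21.3%, against 26.3%), among them HSPA5, SDF2L1, PDIA4, HYOU1 and CALR. The EV sample numbered 1 had the lowest level for 24 of the 47 (51.1%, against 11.4% of all genes), among them 5 of 6 regulators and 8 of 10 synthetases, and the highest for 0. CHAC1 was at 0.80 CPM in EV, 1.24 CPM in SH2 and 9.13 CPM in SH3 at number 1, at 4.52, 6.49 and 5.37 CPM at number 13 and at 1.63, 1.94 and 1.60 CPM at number 25. ASNS, which makes asparagine, had the same order of groups within each number, with 20.8, 26.6 and 61.1 CPM at number 1, 40.1, 51.6 and 43.7 CPM at number 13 and 26.8, 30.5 and 24.4 CPM at number 25. Both genes were chosen for this display after their values were seen.

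Without the SH3 sample numbered 1, the comparison of number 1 with 13 and 25 called 25 of the 47 genes (53.2%), 2 higher and 23 lower, where 33.7% of all genes were called (17.3% higher and 16.3% lower). Of the regulators 5 of 6 fell, with CHAC1 at -1.63 (SE 0.19, edgeR adjusted p = 5.65e-05), PPP1R15A at -0.46, TRIB3 at -0.35, SESN2 at -0.30 and ATF4 at -0.20 (SE 0.06, edgeR adjusted p = 0.0294). Of the enzymes 3 of 8 fell, with PSAT1 at -0.70, ASNS at -0.62 and MTHFD2, a mitochondrial one-carbon enzyme, at -0.20. The transporters remained 5 of 5, the synthetases were 6 of 10, and the chaperones were 4 lower and 1 higher of 11. In this fit number 1 held the 2 samples of EV and SH2 only.

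**Figure D4:**
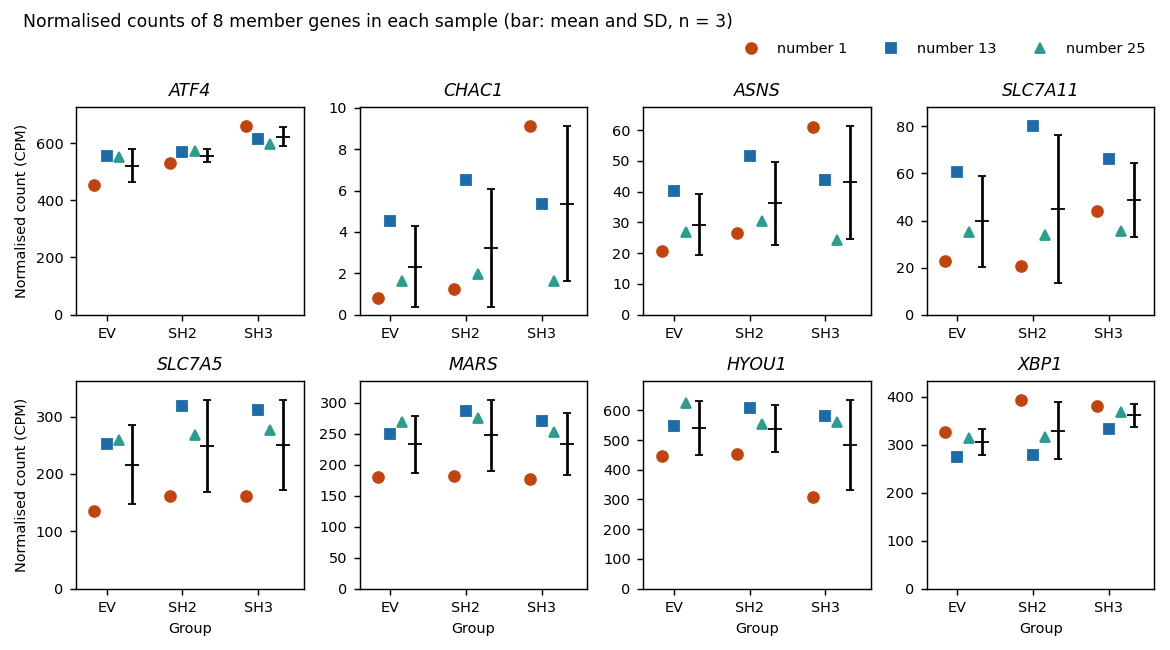
Normalised counts (CPM) of 8 genes in each sample, by group (x axis) and label number (colour and shape), with the mean and SD of each group (n = 3) in black. SLC7A5 and MARS are low in the 3 samples numbered 1, whereas CHAC1 and ASNS are high in only the SH3 sample of that number.

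Numbers 25 and 13 differed less. Of the 47 genes 1 was called, SLC7A11, which was lower at number 25 by 0.99 on the log2 scale (SE 0.20, edgeR adjusted p = 0.0208), beside 5.87% of all genes (3.1% lower). DESeq2 called 3 members (7.34% of all genes) and edgeR without the filter on low counts called 6 (5.36%). At number 13, SLC7A11 lay above all the other 6 samples (1 of 47, 2.13%, against 4.34% of all genes), and EDEM1, a factor that hands misfolded glycoproteins to degradation, lay below all of them (2.13%, against 3.79%). The SLC7A11 call was lost without EV number 13, EV number 25, SH2 number 13, SH2 number 25 or SH3 number 25, with edgeR adjusted p values between 0.0624 and 0.146. Without the SH3 sample numbered 1, 10 of the 47 were called, all lower at number 25 (21.3%), where 19.2% of all genes were called and 9.37% were lower. They included CHAC1 at -1.65 (SE 0.15), SLC7A11 at -0.98, ASNS at -0.72, SESN2 at -0.62 and PSAT1 at -0.52, and 0 of the 11 chaperones.

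Of 66 further genes of the same pathways, taken from a list by role, 63 passed the filter. In the knockdown contrasts 0 of them were called by edgeR with or without the block, and for both shRNAs with the block 13 had an unadjusted p under 0.05 (20.6%, against 20.4% of all genes). DESeq2 with the block called P4HB, SSR2 and VLDLR for SH3, and P4HB, SSR2 and EIF4EBP1 for both shRNAs, all higher. Of all genes it called 4.04% for SH3 (1.57% higher) and 4.96% for both shRNAs (1.47% higher). At number 1 against 13 and 25, 10 rose (15.9%, against 24.1% of all genes) and 23 fell (36.5%, against 22.2%) of the 63. Without the SH3 sample numbered 1, 8 rose and 18 fell, where 17.3% and 16.3% of all genes did. The largest rises were of the stress genes DDIT4 (log2 2.03, SE 0.24, edgeR adjusted p = 0.000368), an inhibitor of mTORC1, KLHL24 (0.96) and TNFRSF10B (0.79), a death receptor. Without the SH3 sample numbered 1 these were 1.48, 0.79 and 0.37, each still called by edgeR. TNFRSF10B then ranked below VLDLR (0.50) and ERO1LB (0.39). DDIT4 was at 39.2, 40.4 and 130 CPM at number 1, 19.9, 22.7 and 18.6 CPM at number 13 and 9.07, 9.25 and 15.4 CPM at number 25. The largest falls were of the ER reductase DNAJC10 (-0.55), of EIF2S1, the phosphorylated subunit of eIF2 (-0.52), and of the one-carbon enzyme MTHFD1L (-0.51). Without the SH3 sample numbered 1 each of these 3 was at -0.40. They were then no longer the largest falls, which were of ATF3 (-1.23, SE 0.18, edgeR adjusted p = 0.000316) and SLC1A4 (-0.46). ATF3 was low, at 1.05 to 4.83 CPM over the 9 samples.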

How the data were processed

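The deposited values were whole-number counts of reads per RefSeq transcript on hg19 (GRCh37), not normalised by the authors, in 48104 rows per sample. The submitters' processing notes name STAR, featureCounts and DESeq2, with versions and roles not given in the sources used here. The study's RNA-seq methods, which name sorted mouse cells, describe poly(A)-selected, unstranded libraries and 3 biological replicates a group. A separate protocol for SKNO-1 was not found in the sources used here. The labels' extraction text describes sorted bone marrow cells, although the stated source is SKNO-1, and SKNO-1 was used.

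The rows of 1 symbol often repeated the same reads, so each symbol was represented by its row with the highest total (25 of the 48 genes had more than 1 row, and all rows together summed to 2.24 times the rows kept). A shift between isoforms could move such a value. Genes were filtered with edgeR's filterByExpr (minimum count 10, minimum total 15), scaled by TMM and tested by the edgeR 4.0.16 quasi-likelihood test in R 4.3.3, with Benjamini-Hochberg adjustment over 14199 genes and a threshold of 0.05. CPM are counts per 1000000 of the TMM-scaled library. The fit over 3 groups left 6 residual degrees of freedom. The fit with the label number added left 4 and gave the number contrasts. Same-numbered samples of different groups deviated together (correlation of deviations from the group means at least 0.398, mean 0.598 over pairs), so the numbers were taken to pair the samples. DESeq2 1.42.0 was an alternative, as were another scaling, no filter, summed rows, a length correction and leaving out each sample. The common biological coefficient of variation fell from 0.192 to 0.0875 once the number was in the fit. The floor of 3 counts covers counting error only, whereas SDs include the spread between samples. SEs and p values set a difference against the spread between these samples, which come from 1 cell line. In the fits with the number, that spread is only what remains after the number differences are removed.

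Gene positions and transcript lengths were from GENCODE v44 lifted to GRCh37, and promoter windows from RefSeq on GRCh38.p14. The fits were tested on simulated data.

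The members, the role lists and the further pathway genes were chosen with earlier results of these data known. Values per sample were given for ATF4, DDIT3, HSPA5, XBP1 and ASXL2, for each gene called in a knockdown contrast of either edgeR fit, and for the 3 genes per role with the largest change among those called at number 1. Other genes named with values were chosen after their values were seen, apart from the 3 further pathway genes that rose and the 3 that fell most.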

Additional observations from a re-analysis of the deposited data

Results flagged for a closer look

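For 9 genes the SH3 sample numbered 1 lay on the opposite side of its group's samples numbered 13 and 25 from where the EV and SH2 samples numbered 1 lay. The difference between the groups was not tested, and each group has 1 sample of each number. The value is log2(CPM + 0.1) of number 1 minus the mean of numbers 13 and 25. It was 0.128 for ATF4 in SH3, against -0.287 in EV and -0.110 in SH2. For TRIB3 it was 0.322, against -0.404 and -0.288. CHAC1 had 1.60 in SH3, against -1.66 in EV and -1.45 in SH2, the widest gap of the 9. ASNS had 0.902, against -0.656 and -0.576. PPP1R15A had 0.0788, against -0.535 and -0.374. The remaining 4 were MTHFD2 at 0.179, CARS at 0.221, PSPH at 0.0799 and AARS at 0.0785 in SH3, each below 0 in EV and SH2. These are regulators, amino acid enzymes and synthetases, with 0 chaperones. The pattern was found for 9 of the 47 genes (19.1%) and for 294 of the 14199 genes tested (2.07%).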

How the results depend on the processing

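In the knockdown contrasts without the block, edgeR called 0 members and 0 genes in all, and scaling (RLE), no filter and summed rows kept that. Counts of all genes are given for SH2, SH3, both shRNAs against EV and SH3 against SH2, in that order. DESeq2 called 25, 26, 56 and 11, and DESeq2 with the replicate block 374, 474, 622 and 152, with 3 members each for SH3 and for both shRNAs. edgeR with the replicate block called 40, 59, 156 and 15, and 7, 49, 24 and 16 with a length correction as well. The next 2 alternatives were chosen after the data were seen. The block fit on genes with a length only called 40, 99, 158 and 10, and the block fit without the 3 samples numbered 1 called 267, 341, 370 and 129, with 1 member, PSAT1, for SH2. Leaving out 1 sample gave 0 to 0, 0 to 1, 0 to 2 and 0 to 0 genes without the block, and 0 to 1604, 1 to 368, 2 to 1755 and 0 to 257 with it, with 0 to 9, 0 to 1, 0 to 8 and 0 members. With the block, the fit without SH3 number 1 called 1604, 368, 1755 and 103 genes and gave the highest member counts, the fit without SH3 number 13 called 265, 93, 90 and 257, that without SH3 number 25 called 88 for both shRNAs, that without EV number 1 called 5 for SH2, and that without EV number 13 called 4 for both. At number 1 against 13 and 25, leaving out 1 sample gave 13 to 25 members and 4813 to 6282 genes. There DESeq2 called 19 members, gaining HSPA5, WARS and CALR and losing CTH (adjusted p = 0.0558), and edgeR with no filter called 19, gaining HSPA5, WARS and PSAT1 and losing MANF (adjusted p = 0.0735). At number 25 against 13 it gave 0 to 10 members and 50 to 2750 genes, and DESeq2 called 3 members, no filter 6, and a fit without the group term 0 members and 304 genes. HSPA5, at 0.08 for both shRNAs with the block, was -0.0075 without EV number 13 and -0.0086 without SH3 number 13. Of the values of single genes 374 kept direction and side of the threshold, 34 lost the threshold, 18 gained it and 2 turned direction. The cause of these moves was not tested. An interaction of group and number was not tested.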
